A study of Rattus norvegicus with 9 samples.

Results

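Messenger RNA levels of 6 extracellular matrix genes were examined in HBZY-1, an established cell line derived from the mesangium of the rat glomerulus. The genes were chosen by their Ensembl identifiers, which are listed as Col1a1 (ENSRNOG00000003897), Col1a2 (ENSRNOG00000011292), Col3a1 (ENSRNOG00000003357), Col4a1 (ENSRNOG00000016281), Fn1 (ENSRNOG00000014288) and Lox (ENSRNOG00000014426), and all 6 were found among the 30560 genes of the deposited table. The names came with the list of identifiers. The deposited tables give identifiers only, and the RefSeq table used here holds 47357 rat genes with 0 Ensembl identifiers, so the pairing of names and identifiers was not checked. The study has 3 groups of 3 libraries, described as biological replicates: control cells, an LPS-induced model, and a group labelled as high-dose water extract, made from lyophilized powder of the leech Poecilobdella manillensis. LPS is lipopolysaccharide, a bacterial cell wall component that provokes inflammatory responses. The title of the series names inflammatory injury of mesangial cells as its subject. Doses, exposure times and any vehicle are not stated, nor whether the extract cells also received LPS. The 9 libraries come from 1 cell line. Whether the replicates were separate cultures is not stated, so p-values measure only the spread between these libraries. Because no other identifier could be named, the markers of mesangial and other cell types and the other matrix genes listed for this work were not examined here.

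The mesangium is the supporting tissue between the glomerular capillaries, and mesangial cells both make and remodel its matrix. Fibrillar collagens are secreted as procollagen trimers, trimmed, and assembled into fibrils, while fibronectin forms a network on the cell surface on which collagen is laid down. Lysyl oxidase then cross-links collagen and elastin outside the cell. Type IV collagen and fibronectin are normal parts of the mesangial matrix, whereas types I and III collagen accumulate in scarred glomeruli and are also made by mesangial cells in culture.

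Levels are given in TPM, a length-corrected share of a library's transcripts, scaled to 1000000, so they can be compared between genes. TPM keeps no sequencing depth, so precision can be read only from how far the 3 libraries of each group lie apart. Differences are log2 fold changes of TPM + 1 from limma, with standard errors (SE). The p-values carry a Benjamini-Hochberg adjustment for the 12192 genes whose mean reached 1 TPM, and percent changes are taken from the same estimates. A gene is called changed at an adjusted p below 0.05. Of the 6 genes, 5 reached 1 TPM and were tested. All 5 were strongly expressed, ranking between 96th and 688th of 30560 genes by mean level, and none of the 6 shared its values with another gene.

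In LPS cells, compared with control cells, the fibrillar collagen genes fell by 35.5% (Col3a1), fell by 35.97% (Col1a2) and fell by 39.1% (Col1a1), while Fn1 was 20.6% and Lox 39.8% higher. All 5 tested genes passed the test, where 40.7% of all genes were called. Of the 5, 2 were higher, as were 9.79% of all genes, and 3 were lower, as were 30.9%. In extract cells compared with LPS cells, Col1a1, Col1a2 and Col3a1 were higher, Fn1 was lower, and Lox did not pass. These are 4 of 5 genes, where 59.4% of all genes were called, 34.4% as higher and 25.0% as lower. Compared with control cells, extract cells had more Col3a1 and Lox and less Col1a2, while Col1a1 and Fn1 did not pass. These are 3 of 5 genes, where 51.7% of all genes were called, 22.3% as higher and 29.4% as lower. Each pair of comparisons shares a group of libraries, so the 3 sets of values are not independent of one another. In RNA from whole cultures, fewer cells expressing a gene and less of its RNA per cell cannot be told apart.

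**Figure D1:**
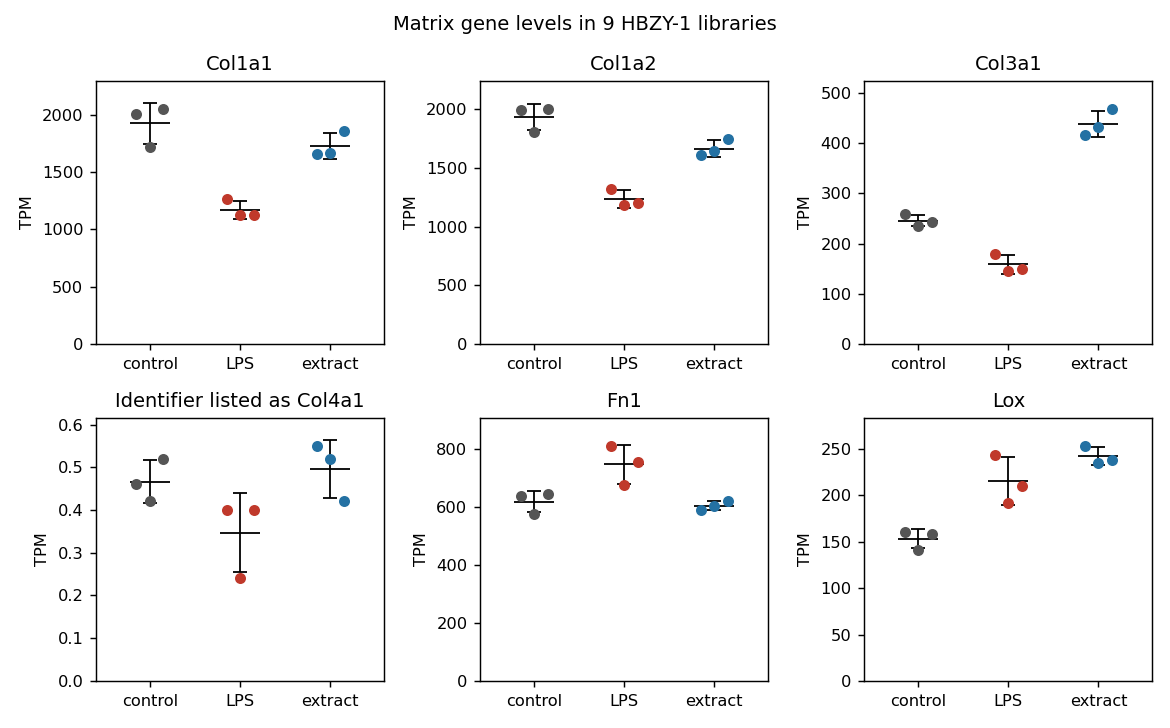
TPM (y axis, from 0, a separate scale per gene) of the 6 genes in each of the 9 libraries, by group; points are libraries and black bars are the mean ± SD of 3. The LPS libraries lie lowest for the 3 fibrillar collagens, the extract libraries lie highest for Col3a1, and the identifier listed as Col4a1 stays between 0.24 and 0.55 TPM.

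Col1a1 and Col1a2 encode the pro-α1 and pro-α2 chains of type I collagen, which combines a pair of α1 chains with a single α2 chain. Col1a1 stood at 2011, 1721 and 2048 TPM in control, 1262, 1128 and 1126 TPM in LPS, and 1656, 1671 and 1856 TPM in extract libraries. Each LPS library lay below each library of the other groups, and the control and extract values overlapped. LPS differed from control by -0.71 ± 0.075 (SE) on the log2 scale (adjusted p = 7.1e-05, limma), and extract differed from LPS by 0.56 ± 0.075 (adjusted p = 0.000149, limma). The extract-control difference was -0.15 ± 0.075, with a 95% interval from -0.32 to 0.01 (adjusted p = 0.113, limma). For each of the 5 tested genes control replicate 2 held the lowest control value, and without it the extract-control difference of Col1a1 became -0.23 and passed (adjusted p = 0.0162, limma).

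Col1a2 stood at 1993, 1804 and 1999.7 TPM in control, 1323, 1188 and 1200.2 TPM in LPS, and 1609, 1641 and 1742 TPM in extract libraries. The 3 groups did not overlap, with LPS lowest, extract between and control highest. Values of LPS and control libraries failed to overlap for 50.1% of all genes tested, those of extract and LPS libraries for 65.1%, and those of extract and control libraries for 61.1%. LPS differed from control by -0.64 ± 0.055 on the log2 scale (adjusted p = 1.99e-05, limma), and extract differed from LPS by 0.43 ± 0.055 (adjusted p = 0.000114, limma). Between extract and control Col1a2 differed by -13.8%, or -0.21 ± 0.055 on the log2 scale (adjusted p = 0.00911, limma). That last call was lost when genes of any level were tested (adjusted p = 0.0654, limma).

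The pair was nearly equal in TPM in every library. The ratio of Col1a1 to Col1a2 was 1.01, 0.954 and 1.02 in control, 0.953, 0.95 and 0.938 in LPS, and 1.03, 1.02 and 1.07 in extract libraries. The LPS ratios lay lowest, just below control replicate 2. The ratio differed between the 3 groups (exact permutation test over 1680 arrangements of the libraries, p = 0.0143, adjusted over 3 gene pairs p = 0.0143) and was lowest in LPS (0.947 ± 0.0077, SD, n = 3) and highest in extract cells (1.04 ± 0.025). This call rested on single libraries: the adjusted exact permutation p was 0.05 without LPS replicate 3 and 0.0607 without extract replicate 3.

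Promoter sequence was looked up for the 6 genes in the RefSeq promoter table (assembly GRCr8). The table has entries for 2 of the 6 genes, Col1a2 and Col4a1. It has none for Col1a1, so the promoters of the type I collagen pair could not be compared. The stretch shown lies on the plus strand at chr4:33518307-33518426, from 250 to 131 bases before the annotated start of Col1a2. Entries run on to 50 bases after the start, and that part nearer the start was not searched. Capitals mark a CCAAT box read on the opposite strand, a TATAAA match, and a CAGAC match on the opposite strand, the letters at the core of SMAD-binding elements.
Col1a2 promoter: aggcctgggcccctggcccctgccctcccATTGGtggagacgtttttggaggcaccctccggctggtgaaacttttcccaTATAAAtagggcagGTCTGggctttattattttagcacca
Each motif was searched on both strands, and the matches do not overlap. Among the same 120-base windows of 33469 promoters, 17.1% hold CCAAT and 6.31% hold TATAAA. The letters CAGAC occur in 24.0% of the windows. GGGCGG, a GC box, was also searched, occurs in 12.7% of them, and was not matched in the Col1a2 window. The same window of Col4a1 also holds a CCAAT match on the opposite strand, and no match to the other motifs. These matches describe the sequence only, and binding was not measured.

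Col3a1 encodes the chain of type III collagen, a homotrimer that is found in fibrils together with type I. It stood at 259, 236 and 243 TPM in control, 180.0, 146 and 151 TPM in LPS, and 417, 432 and 467 TPM in extract libraries. The 3 groups did not overlap, and extract libraries lay far above both others. LPS differed from control by -0.63 ± 0.078 on the log2 scale (adjusted p = 0.000188, limma). Extract differed from LPS by 1.47 ± 0.078 (adjusted p = 3.94e-07, limma), a 2.76-fold difference with a 95% interval from 2.45 to 3.12, which ranked 206th of 12192 genes by size. From control, extract differed by 0.83 ± 0.078, or 1.78-fold (adjusted p = 2.01e-05, limma).

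Type III relative to type I collagen mRNA stood higher in extract cells. The ratio of Col3a1 to Col1a1 was 0.129, 0.137 and 0.119 in control, 0.143, 0.129 and 0.134 in LPS, and 0.252, 0.259 and 0.252 in extract libraries. Control and LPS ratios overlapped, and all extract ratios lay above them. This ratio was added after the levels were seen and was not tested. The ratios that were tested had also been set with earlier results of these data known. Col1a1, Col1a2 and Col3a1 together made up 0.376% to 0.429% of a control library's TPM, 0.246% to 0.276% of an LPS library's and 0.368% to 0.407% of an extract library's.

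**Figure D2:**
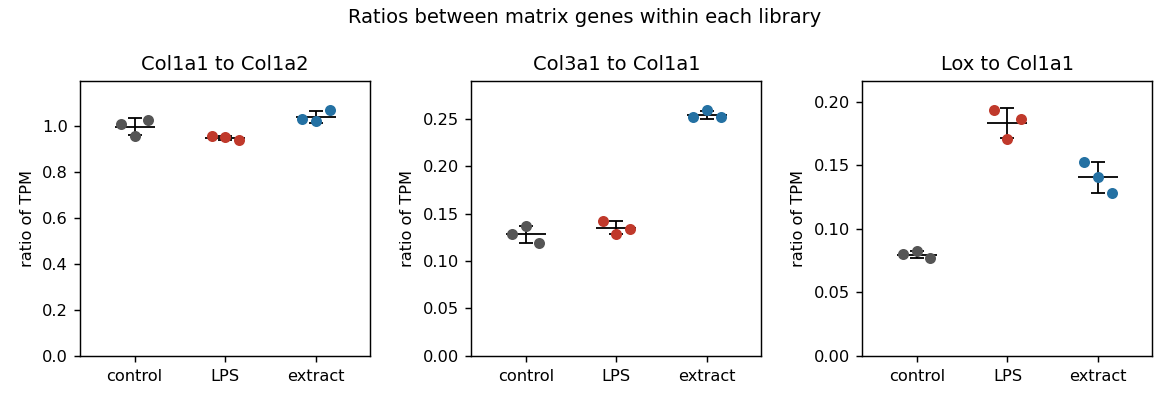
Ratio of TPM between pairs of genes within each library (y axis, from 0), by group; points are libraries and black bars are the mean ± SD of 3. Col1a1 to Col1a2 stays between 0.938 and 1.07, Col3a1 to Col1a1 is highest in extract libraries (0.252 to 0.259), and Lox to Col1a1 is highest in LPS libraries (0.171 to 0.193).

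The identifier listed as Col4a1, ENSRNOG00000016281, had a very low level. Col4a1 encodes the α1 chain of type IV collagen, the network collagen of basement membranes and a regular component of mesangial matrix. The identifier stood at 0.46, 0.42 and 0.52 TPM in control, 0.4, 0.24 and 0.4 TPM in LPS, and 0.55, 0.52 and 0.42 TPM in extract libraries. With values this low it was not among the genes tested. When genes of any level were tested, its largest log2 fold change was 0.15 ± 0.059 in extract versus LPS (adjusted p = 0.148, limma). Whether the line expresses little Col4a1 or another identifier of the table carries this gene was not tested, and no statement on type IV collagen is drawn from these values. Its ratio to Col1a1, set for testing, differed between the groups with a pseudocount of 1 TPM (exact permutation adjusted p = 0.0107) and not with 0.1 TPM (exact permutation adjusted p = 0.225).

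Fn1 encodes fibronectin, a dimeric glycoprotein that binds integrins, collagen and heparan sulfate. It stood at 636, 575 and 644 TPM in control, 810.5, 676 and 755 TPM in LPS, and 590.2, 603 and 621 TPM in extract libraries. LPS libraries lay above all others, and the extract libraries lay within the range of the control libraries. LPS differed from control by 0.27 ± 0.066 on the log2 scale (adjusted p = 0.00914, limma), and extract differed from LPS by -0.30 ± 0.066 (adjusted p = 0.00306, limma). The first call was lost when genes of any level were tested (adjusted p = 0.0662, limma). In extract versus control the log2 fold change was -0.03 ± 0.066, with a 95% interval from -0.18 to 0.12 (adjusted p = 0.722, limma).

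Fibronectin transcripts are known for alternative splicing of single modules, and Fn1 was the only gene of the 6 with more than 1 transcript above 10% of its TPM. Transcripts were linked to genes by sums of consecutive transcript values, and in each of the other 5 genes 1 transcript carried at least 99.7% of the TPM as a mean over the 9 libraries. The lowest shares in a single library were 98.1% for the identifier listed as Col4a1 and 99.4% for Col1a1. The former identifier was linked to only 1 transcript. Its 98.1% is 0.51 against 0.52 TPM in extract replicate 2, a difference within rounding. Fn1 had 3 transcripts. ENSRNOT00000110905 held a mean of 86.3% of the Fn1 TPM over the 9 libraries and ENSRNOT00000057585 held 13.7%. Which exons they contain is not given in the files.

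The more abundant Fn1 transcript, ENSRNOT00000110905, ranged from 504 to 562 TPM in control, from 585 to 700.3 TPM in LPS and from 504 to 523 TPM in extract libraries. Its LPS-control difference was 0.25 ± 0.067 on the log2 scale (adjusted p = 0.026, limma, over 19383 transcripts, of which 23.0% were called). Its extract-LPS difference was -0.33 ± 0.067 (adjusted p = 0.00412, limma, where 39.1% of transcripts were called). The first of these did not pass without control replicate 2 (adjusted p = 0.0757, limma), LPS replicate 1 (0.0695) or LPS replicate 3 (0.0726). The less abundant transcript, ENSRNOT00000057585, ranged from 71.1 to 81.8 TPM in control, from 90.7 to 109.9 TPM in LPS and from 86.0 to 97.5 TPM in extract libraries. It was higher than control in LPS cells, by 0.37 ± 0.081 (adjusted p = 0.0114, limma), and its extract-LPS difference was -0.11 ± 0.081 (adjusted p = 0.337, limma). With single libraries left out that difference ranged from -0.18 to -0.038 and did not pass. Its extract-control difference of 0.27 ± 0.081 passed (adjusted p = 0.0354, limma, where 32.0% of transcripts were called). That call was lost without control replicate 1 or 2, LPS replicate 3, or extract replicate 2 or 3, with limma adjusted p-values from 0.0513 to 0.111.

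As a share of Fn1, ENSRNOT00000057585 lay between 12.2% and 12.7% in control, between 13.1% and 13.6% in LPS and between 14.6% and 15.7% in extract libraries. The 3 groups did not overlap. Among the 9161 transcript shares tested, values failed to overlap for 17.7% between LPS and control, for 17.3% between extract and LPS, and for 18.2% between extract and control. None of its share differences passed limma's test across those shares. That test draws its SE partly from the spread of all shares tested. The SE of 1.3 points is therefore wider than this transcript's own spread, an SD of 0.25, 0.21 and 0.62 points in control, LPS and extract libraries. The uncalled differences thus do not show that its own values were noisy. The extract-control difference was 2.87 ± 1.3 percentage points, with a 95% interval from -0.11 to 5.85 (adjusted p = 0.432, limma, where 0.513% of shares were called). In extract versus LPS it was 1.92 ± 1.3 points (adjusted p = 0.66, limma, where 0.317% were called), and in LPS versus control 0.96 ± 1.3 points (adjusted p = 0.837, limma, where 0.873% were called).

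**Figure D3:**
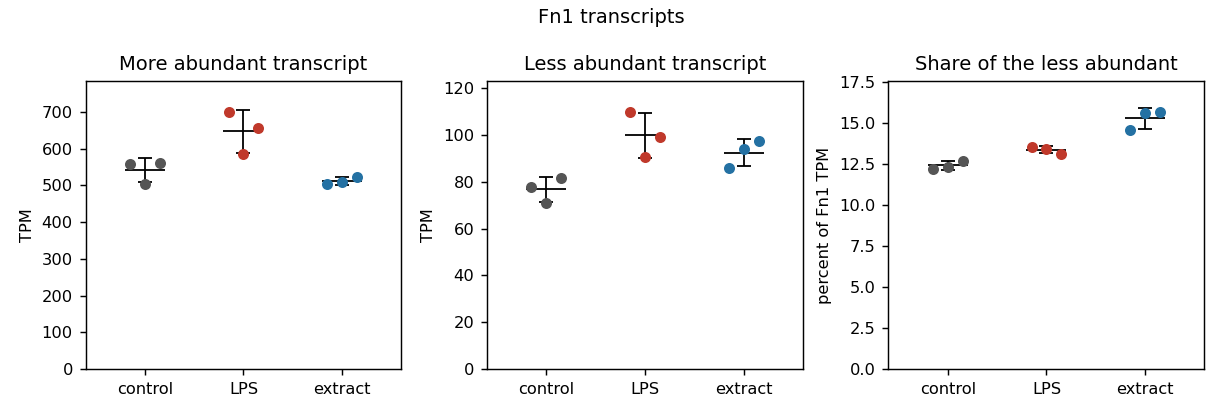
TPM of the Fn1 transcripts ENSRNOT00000110905 (left) and ENSRNOT00000057585 (middle), and the latter as a percent of Fn1 TPM (right), by group; y axes start at 0, points are libraries and black bars are the mean ± SD of 3. Both transcripts are highest on average in LPS cells, and the share lies between 12.2% and 12.7% in control and between 14.6% and 15.7% in extract libraries.

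Lox encodes lysyl oxidase, the copper-dependent enzyme that oxidises lysine side chains of collagen and elastin to start their cross-linking. It stood at 161, 142 and 158 TPM in control, 244, 192 and 211 TPM in LPS, and 253, 235 and 238 TPM in extract libraries. All LPS and extract libraries lay above all control libraries, and LPS replicate 1 lay among the extract libraries. LPS differed from control by 0.48 ± 0.081 on the log2 scale (adjusted p = 0.00126, limma) and extract differed from control by 0.66 ± 0.081 (adjusted p = 0.000124, limma). The extract-LPS difference was 0.17 ± 0.081, with a 95% interval from -0.01 to 0.36 (adjusted p = 0.0941, limma). For each of the 5 tested genes LPS replicate 1 held the highest LPS value, and without it the extract-LPS difference of Lox was 0.27 and passed (adjusted p = 0.00744, limma).

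Lox and type I collagen changed by unequal folds. The ratio of Lox to Col1a1 was 0.0799, 0.0823 and 0.0771 in control, 0.193, 0.171 and 0.187 in LPS, and 0.153, 0.141 and 0.128 in extract libraries. The 3 groups did not overlap, with LPS highest and extract between. The ratio differed between the groups (exact permutation test, p = 0.00357, the smallest the 1680 arrangements allow, adjusted over 3 gene pairs p = 0.0107). It rests on the same values as the single-gene tests and adds no separate evidence. How often the ratios of other gene pairs separate the groups was not computed.

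**Figure D4:**
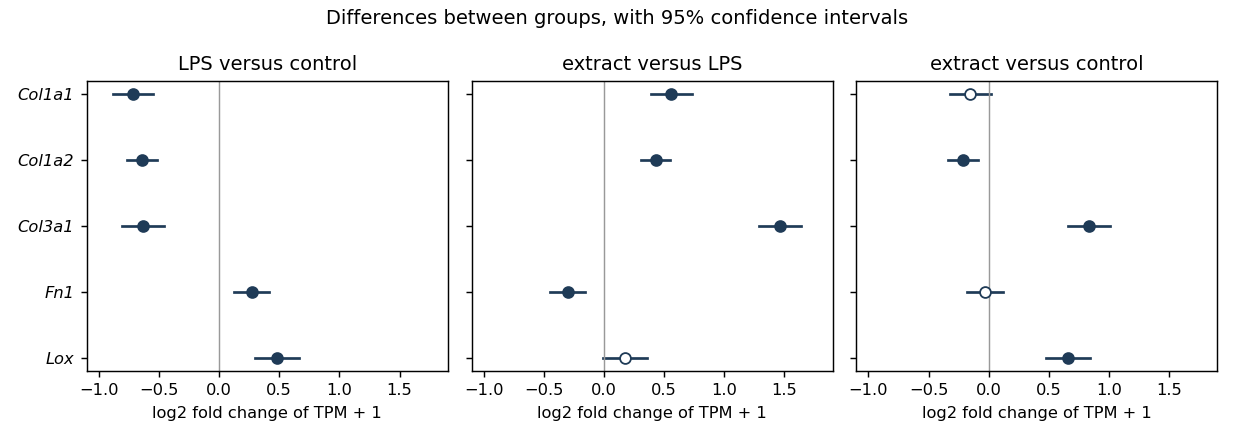
Log2 fold change of TPM + 1 (x axis) of the 5 tested genes in the 3 comparisons; points are limma estimates, filled where the adjusted p is below 0.05, and lines are 95% confidence intervals. Col3a1 has the widest span, from -0.63 in LPS versus control to 1.47 in extract versus LPS.

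Seen against all 12192 genes, the median log2 difference of the 5 was -0.63 for LPS against control, 0.43 for extract against LPS, and -0.03 for extract against control. The medians of all genes, in the same order, were -0.08, 0.04 and -0.04. In each comparison the 5 genes went in both directions, so their medians describe no shared shift. The central 90% of all genes lay between -0.61 and 0.38 in LPS versus control, and the 3 fibrillar collagens lay below that range while Lox lay above it and Fn1 within it. In extract versus LPS the range was -0.67 to 0.81, and Col3a1 alone of the 5 lay outside it. In extract versus control it was -0.67 to 0.60, with Col3a1 and Lox above it.

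**Figure D5:**
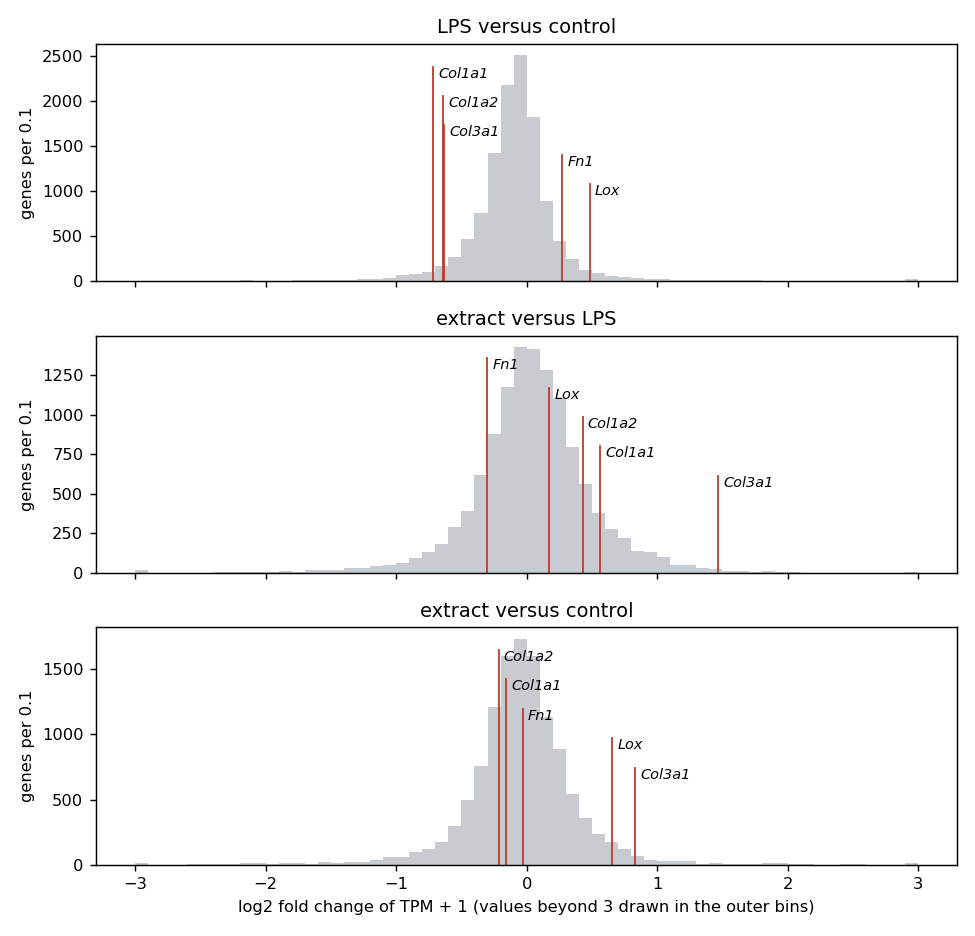
Number of tested genes per 0.1 of log2 fold change (grey bars, y axis) in the 3 comparisons, with the 5 tested matrix genes as red lines whose heights carry no meaning. In LPS versus control the fibrillar collagens lie between -0.71 and -0.63 and Lox at 0.48; in extract versus LPS Col3a1 lies at 1.47.

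The likeness of patterns was measured as Pearson's r of log2(TPM + 1) over the 9 libraries, as a description only, since the libraries fall into 3 groups. By this measure Col1a2 was the 6th of 12191 genes most like Col1a1 (r = 0.99), and Col1a1 the 10th most like Col1a2. Col3a1 was less like Col1a1 (r = 0.688, rank 2562). Fn1 correlated negatively with Col1a1 (r = -0.684, rank 11390), and Lox did so only weakly (r = -0.352, rank 9721). Among genes that were lower in LPS cells, the one most like Col3a1 was ENSRNOG00000009656 (r = 0.999). Its level was 47.8 ± 4.1, 30.2 ± 3.7 and 87.2 ± 7.1 TPM (SD, n = 3) in control, LPS and extract cells. The gene most like Col1a1 was ENSRNOG00000016544 (r = 0.998), with 3.32 ± 0.34, 1.87 ± 0.20 and 2.96 ± 0.24 TPM in the same order. The gene most like Lox was ENSRNOG00000002680 (r = 0.988), with 67.0 ± 2.0, 75.5 ± 2.7 and 80.6 ± 1.0 TPM. The gene most like Fn1 was ENSRNOG00000002106 (r = 0.967), with 24.6 ± 0.55, 26.7 ± 1.6 and 23.6 ± 0.56 TPM. Pearson's r compares the shape of patterns and takes no account of the size of a change. The LPS-control difference of ENSRNOG00000002106 was 0.11 ± 0.048 (SE) and was not called (adjusted p = 0.0828, limma). That of ENSRNOG00000002680 was 0.17 ± 0.037, against 0.48 for Lox. These identifiers could not be named.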

How the data were processed

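RNA of 9 HBZY-1 libraries (3 control, 3 LPS, 3 extract) was analysed from a gene and a transcript table (54991 transcripts) of TPM values deposited by the authors. RSEM 1.3.3, HISAT2 2.1.0 and fastp are named, per the submitters' processing notes, with no roles. Of genome build, annotation, strandedness and read depth, nothing is given in the sources used here. Columns were matched to libraries by the code opening each title.

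TPM was taken as log2(TPM + 1). With limma 3.58.1 (R 4.3.3), 1 linear model of the 3 groups was fitted over all genes or transcripts whose mean reached 1 TPM, using a mean-variance trend. It leaves 6 residual degrees of freedom, and tests were two-sided. Transcripts were linked to a gene where neighbouring rows added up to its TPM in every library, allowing 0.006 TPM for each rounded number. Shares were tested with no trend, in genes reaching 5 TPM, for mean shares of 10% to 90%. Ratios were tested by exact permutation (scipy 1.17.1), one-sided in the F statistic. The procedures were checked on simulated data. Genes most like each gene were chosen by the highest r, and at most 2 bare identifiers in each direction are printed. The genes, lists and tests were chosen with earlier results of these data known. The lists of other matrix genes and cell type markers were not applied, because identifiers could not be named.

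Alternatives were pseudocounts of 0.1 and 5, no filter or one of 5 TPM, median-of-ratios rescaling, a replicate block, quantile normalization, no trend, fits of the 2 groups compared, and leaving out each library.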

Additional observations from a re-analysis of the deposited data

How the results depend on the processing

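The 15 gene results (5 genes in 3 comparisons) were recomputed under 18 alternatives each. Of the 270 values, 263 kept their direction and their side of the threshold. Many could not change direction. The filters, replicate block, fits of 2 groups, omitted trend and leaving out a library outside the comparison do not move the estimate. The numbers of called genes stayed within 1.5 times, a loose limit for 5 genes that a fall from 3 to 2 still meets. With no filter, Fn1 in LPS versus control (0.27) and Col1a2 in extract versus control (-0.21) no longer passed, with 30560 genes entering the test. The SE also rose there, from 0.066 to 0.074 for Fn1 and from 0.055 to 0.062 for Col1a2, so more than the number of genes differed. The uncalled Fn1 difference in extract versus control (-0.03) became 0.011 after median-of-ratios rescaling and 0.044 with quantile normalization, also uncalled. Rescaling moved the median log2 fold change over genes by 0.09 for LPS against control, -0.05 for extract against LPS and 0.04 for extract against control. Replicate numbers were not used as pairs in the main fit. Deviations of same-numbered libraries from different groups correlated between -0.055 and 0.095, and those of differently numbered ones between -0.11 and 0.089. Of the 9 libraries, 6 correlated best with their own number. Whether the numbers mark pairs is not settled by these values. With the replicate block Lox in extract versus LPS passed at an unchanged 0.17 (adjusted p = 0.018, limma), no other call of the 15 changed, and 4658, 7072 and 6070 genes were called instead of 4962, 7240 and 6298. With single libraries left out, Col1a1 in extract versus control ranged from -0.23 to -0.11 and Lox in extract versus LPS from 0.095 to 0.27. The Fn1 transcript ENSRNOT00000057585 in extract versus control ranged from 0.21 to 0.32, and ENSRNOT00000110905 in LPS versus control from 0.20 to 0.32. The adjusted exact permutation p of the Col1a1 to Col1a2 ratio ranged from 0.00536 to 0.0607. That of the Col4a1 to Col1a1 ratio was 0.225 with a pseudocount of 0.1, whereas the pseudocount of 1 exceeds every Col4a1 value. The recomputed Fn1 transcript shares were chosen after seeing the data and stayed uncalled throughout. Without read depth, counting error could not be separated from the spread between libraries.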
